A study of Saccharomyces cerevisiae with 15 samples.

Results

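Ribosome biogenesis factor genes were taken as the genes whose symbol starts with UTP, NOP, RRP, NOC, RPF, NSA, RLP or ENP followed by a number, and 64 of the 5449 genes with a probe set on the array met this rule. The rule used names only and no measured value. Each of the 64 genes had 1 probe set, and all 64 passed the filter on low values in every comparison. They lie on 14 chromosomes, and 6 genes (NOC4, NOP4, NOP53, RRP9, RRP12 and RRP15) are on chromosome XVI.

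Ribosomes are built in the nucleolus, where RNA polymerase I makes a long precursor of the ribosomal RNAs. The U3 small nucleolar ribonucleoprotein (snoRNP) and the UTP-A, UTP-B and UTP-C complexes assemble on that precursor to form the 90S particle, or small subunit processome, from which the 40S subunit arises. A separate set of factors matures the 60S subunit, and the exosome trims and degrades RNA from its 3′ end. In budding yeast these genes are known to be expressed in step with growth and to be repressed together under many stresses.

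Transcript levels were measured with Affymetrix yeast arrays in 5 strains of Saccharomyces cerevisiae grown in rich medium (YPD) to mid-log phase. All strains carried his3∆1, leu2∆0 and ura3∆0. BY4741, a wild type, and sac3Δ carried met15∆0 besides, while BY4742, the other wild type, thp1Δ and sus1Δ carried lys2∆0, and each mutant had its gene replaced by KanMX. Sac3, Thp1 and Sus1 are subunits of THSC/TREX-2, a complex of the nuclear pore that joins transcription to mRNA export, and Sus1 also belongs to the SAGA complex. There were 3 arrays per strain, labelled as biological replicates with nothing said of separate cultures, so each p-value refers to array-to-array spread alone, which may be technical, and the number of arrays limits the precision. Each mutant was a single strain, and the comparisons ask how much of each factor's mRNA was present when 1 subunit was absent. Because whole cultures were measured, less RNA per cell and fewer cells with that RNA cannot be told apart.

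The deleted genes read 15.9 ± 0.788 (SAC3 in sac3Δ), 16.1 ± 3.34 (THP1 in thp1Δ) and 21.1 ± 1.91 units (SUS1 in sus1Δ, SD, n = 3), and their lowest mean in any other strain was 854 ± 117 (SUS1 in BY4742). Although MATa is given for every strain, the α-specific gene STE3 averaged 6941, 8574 and 9322 units in BY4742, thp1Δ and sus1Δ, against 410 and 186 in BY4741 and sac3Δ. By this gene each mutant grouped with its wild type. The a-specific gene STE2 averaged 10423 and 13258 units in BY4741 and sac3Δ, and 196, 1106 and 411 in BY4742, thp1Δ and sus1Δ. In thp1Δ, STE2 and the a-specific MFA1, MFA2 and BAR1 were all above BY4742 but well below BY4741. The median gene read 1302 to 1505 units per array. Of the 64 genes, 5 (NOC2, RRP3, RRP42, RRP46 and UTP18) had an empty value, each in BY4741 replicate 3, where 799 of all genes did, against 0 to 20 in any other array. For the control gene SRB4, the level at its 3′ end divided by that at its 5′ end, which reflects RNA and labelling quality, was 4.28 to 4.63 in BY4742, 4.59 to 5.16 in sus1Δ, 6.09 to 7.01 in BY4741, 8.49 to 12.0 in sac3Δ and 8.84 to 19.3 in thp1Δ. It was thus higher in both strains in which the 64 genes differed from wild type, and its part in the results was not tested.

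As a group, the 64 genes had a median below wild type in thp1Δ, above it in sac3Δ and close to it in sus1Δ. Their median level was 2089, 2277 and 2107 units in the 3 thp1Δ arrays and 2402, 2432 and 2366 in BY4742, so that every thp1Δ array lay below every BY4742 array. In sac3Δ it was 3139, 3340.0 and 2544, and in BY4741 2556, 2129 and 2036, so that sac3Δ replicate 3 lay just below BY4741 replicate 1 and the groups overlapped. The sus1Δ arrays, at 2332, 2426 and 2476, spanned those of BY4742. Relative to the mean of its own wild type, the median of the 64 genes stood at −0.28, −0.26 and −0.30 (log2) in thp1Δ, at 0.41, 0.46 and 0.10 in sac3Δ and at −0.07, 0.03 and 0.0017 in sus1Δ.

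In BY4741 and sac3Δ, single arrays stood apart for most of the 64 genes. In BY4741, replicate 1 was the highest of the 3 arrays for 57 of the 59 genes with all values, although only 29.4% of all genes were highest there. In sac3Δ, replicate 3 was the lowest for 62 of 64 genes, against 44.9% of all genes. BY4741 replicate 3 was the lowest of its strain for 41 of 59 genes and sac3Δ replicate 2 the highest of its own for 48 of 64. The median SD of the 64 genes within a strain was 0.25 (log2) in BY4741 and 0.21 in sac3Δ, above those of all genes (0.16 and 0.11), while in BY4742 (0.05), sus1Δ (0.06) and thp1Δ (0.10) it was close to that of all genes (0.05, 0.05 and 0.09).

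**Figure D1:**
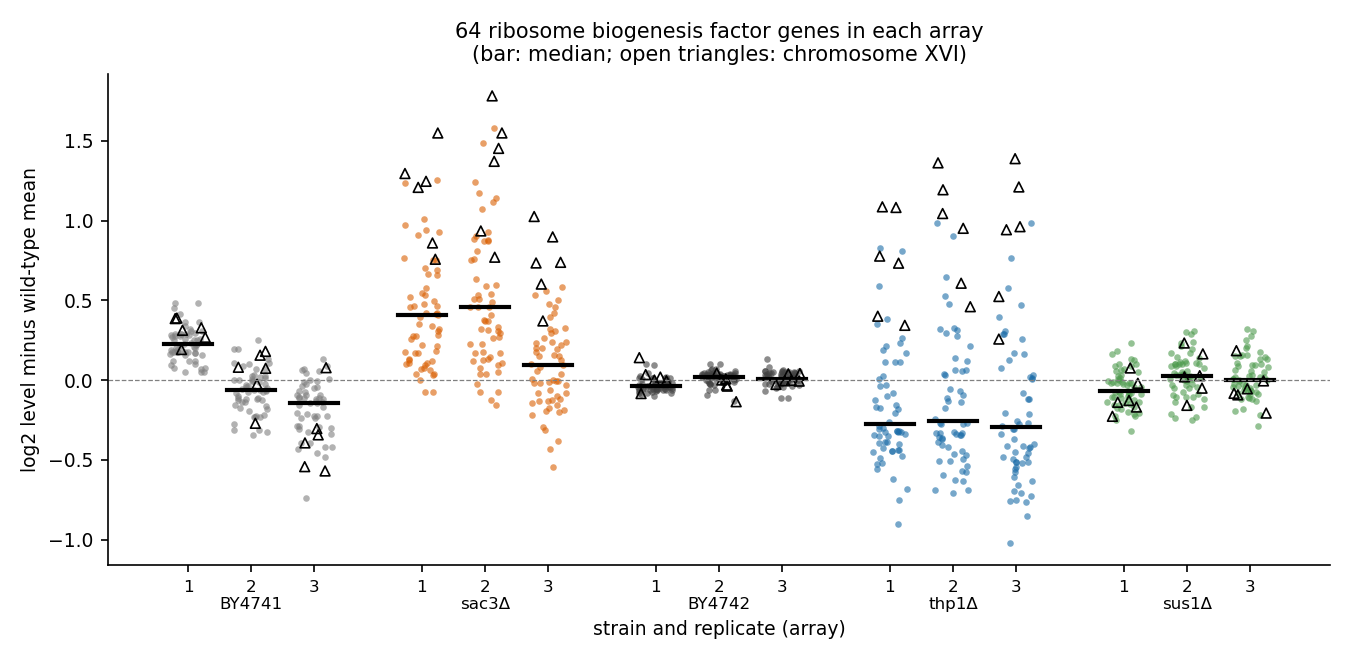
Level of each of the 64 genes in each of the 15 arrays, as log2 level minus the gene's mean in the strain's own wild type (y axis), by strain and replicate (x axis). Bars are array medians, at −0.26 to −0.30 in thp1Δ, 0.10 to 0.46 in sac3Δ and −0.07 to 0.03 in sus1Δ, and open triangles are the 6 genes of chromosome XVI.

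In thp1Δ cells, most ribosome biogenesis factor genes were below their wild-type level by small amounts, and a few were well above it. A gene was called changed at a limma p-value under 0.05 after Benjamini-Hochberg adjustment over all genes tested, at least a 1.5-fold change and means over 100 units apart. Against BY4742, 5 of the 64 genes fell (7.81%, against 6.17% of all 4231 genes tested) and 6 rose (9.38%, against 14.9%), so the share that fell was near that of all genes and the share that rose was below it. The median log2 fold change of the 64 genes was −0.26, against 0.06 for all genes, and 45 of the 64 lay below the median gene. With no fold minimum, 33 genes passed the adjusted p with a lower level (25.3% of all genes did) and 11 with a higher one (36.4%). In 37 genes (57.8%) all thp1Δ arrays were below all BY4742 arrays, as in 33% of all genes, and in 18 (28.1%) all were above, as in 44.4%. Setting the array medians equal moved the median gene by −0.12 in thp1Δ and sac3Δ alike and gave 14 of the 64 genes lower and 6 higher in thp1Δ, while over all genes the split went from 631 higher and 261 lower to 481 and 446. The median of the 64 genes relative to the median gene was −0.31 as deposited and −0.32 after this scaling.

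The 6 genes that rose in thp1Δ were NOP53, RRP9, RRP14, NOP4, RRP15 and NOP16, and all 6 also rose in sac3Δ. The share of all genes higher in thp1Δ that also rose in sac3Δ is not given here. Over the whole genome, the paper reports a high overlap of the genes raised in these mutants. NOP53 encodes a late 60S factor that brings the helicase Mtr4 to the precursor. Its level was 4264, 5161 and 5256 units in the thp1Δ arrays and 2003, 1957 and 2067 in BY4742, 2.43-fold higher (log2 fold change ± SE of 1.28 ± 0.20, adjusted p = 0.000119, with n = 3 arrays per strain save for the 5 genes with an empty value). In sac3Δ it was 5216, 6129 and 3322, against 2215, 1886 and 1358 in BY4741, 2.66-fold higher (1.41 ± 0.20, adjusted p = 0.000122), and the 3 sus1Δ arrays gave 1717, 1800.4 and 1741. Every array of both mutants lay above every array of the other 3 strains. RRP9, the protein that marks the U3 snoRNP, behaved likewise, at 3402, 3674 and 3719 in thp1Δ and 1516, 1657 and 1652 in BY4742 (1.16 ± 0.14, adjusted p = 1.74e-05). Its levels of 3696, 4121 and 3066 in sac3Δ were all above the 1891, 1481 and 1221 of BY4741 (1.26 ± 0.14, adjusted p = 2.43e-05).

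RRP14, needed for early steps of both subunits, is on chromosome XI and read 4964, 5549 and 5543 units in thp1Δ, against 2803, 2847 and 2753 in BY4742 (0.93 ± 0.20, adjusted p = 0.00118). In sac3Δ its arrays gave 6875, 8093 and 4329 and in BY4741 3600.4, 3034 and 2197 (1.11 ± 0.20, adjusted p = 0.000625). The 60S factor NOP16, on chromosome V, was at 3591, 3829 and 3478 in thp1Δ and at 2088, 2071 and 1983 in BY4742 (0.83 ± 0.21, adjusted p = 0.00361), and neither gene's groups overlapped. In sac3Δ NOP16 spread widely, at 4485, 5690.4 and 2642 against 2299, 1835 and 1629 in BY4741 (1.10 ± 0.21, adjusted p = 0.000871), but its lowest sac3Δ array was still above the highest of BY4741. NOP4 encodes an RNA-binding protein of the early 60S particle, with 4587, 5691 and 5305 units in thp1Δ and 2828, 2702 and 2753 in BY4742 (0.91 ± 0.21, adjusted p = 0.00206). Its sac3Δ values of 5741, 6261 and 4027 stood above the 3169.5, 2743 and 1632 of BY4741 (1.12 ± 0.21, adjusted p = 0.00083). RRP15, a 60S factor with a role in precursor processing, read 4491, 5067 and 5103 in thp1Δ and 2889.9, 2387 and 2610.1 in BY4742 (0.90 ± 0.22, adjusted p = 0.00304). In sac3Δ it read 4857, 6152 and 3508, against 2748, 2344 and 1444 (1.16 ± 0.22, adjusted p = 0.000855). Groups did not overlap for either gene. The calls of all 6 genes were kept in both mutants when any 1 array was left out. In sac3Δ, NOP53, RRP14, NOP16 and RRP15 did not pass the methods' t-test at an unadjusted p under 0.05, and none of the 6 passed it after Benjamini-Hochberg adjustment, whereas all 6 passed both in thp1Δ.

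**Figure D2:**
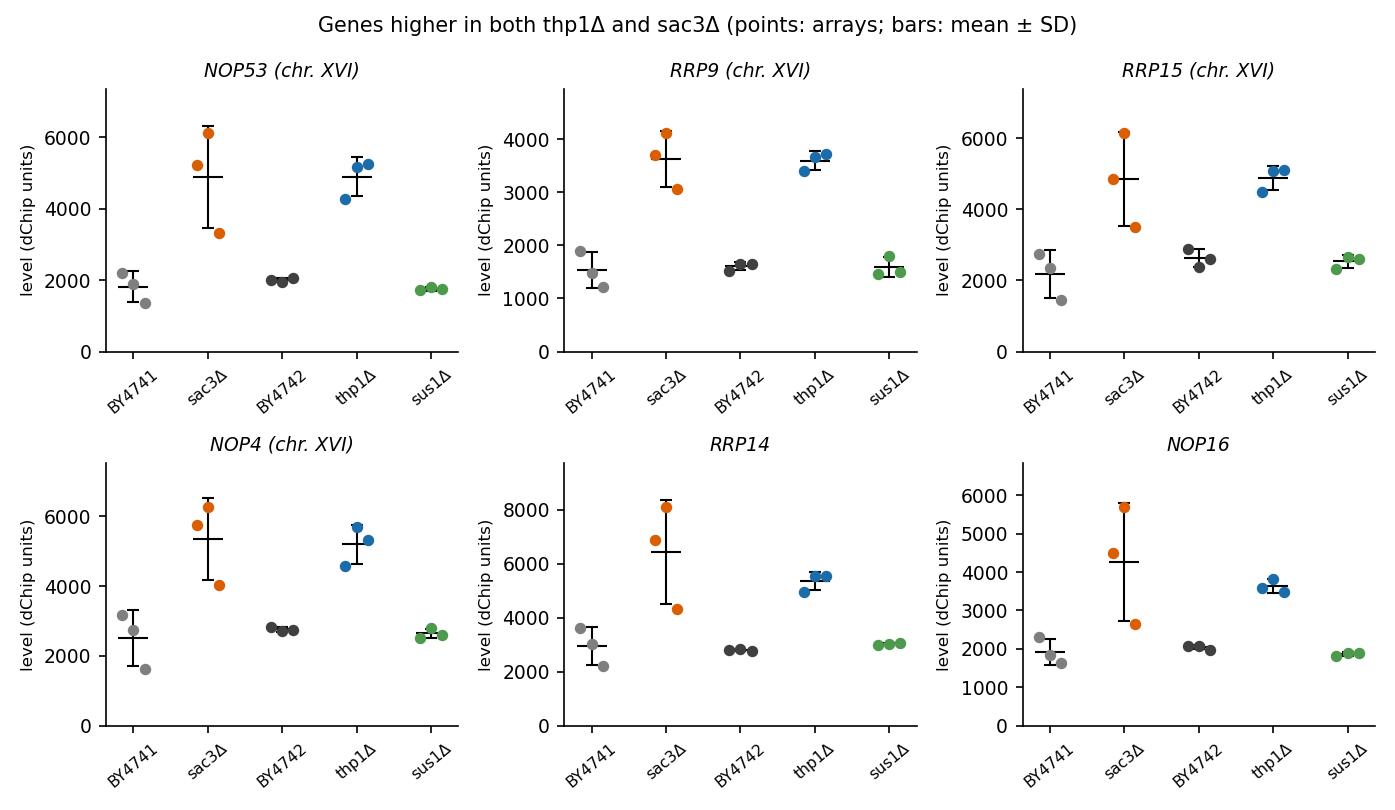
Level in dChip units (y axis, from 0) of the 6 genes that rose in both thp1Δ and sac3Δ, by strain (x axis). Points are single arrays, horizontal marks with bars are the mean ± SD of 3 arrays, and the mutant arrays of each gene lie above those of its wild type, while sus1Δ stays near BY4742.

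Of these 6 genes, 4 lie on chromosome XVI, whose genes were raised as a whole. The median log2 fold change of the chromosome was 0.86 in thp1Δ (339 genes tested) and 0.51 in sac3Δ (340 genes), against 0.02 and 0.03 for the other chromosomes, and 0.04 in sus1Δ. In thp1Δ, NOP53 and RRP9 stood 0.42 and 0.31 above their chromosome's median, with 59 and 84 of the 339 genes higher, whereas NOP4 and RRP15 were within 0.05 and 0.04 of it. The other members there were below it, RRP12, an exportin-like factor of both subunits, at 0.51 ± 0.13 and NOC4, a 40S factor, at 0.35 ± 0.12, neither reaching the fold minimum. In sac3Δ all 6 were called and above the chromosome's median, by 0.90 (NOP53), 0.75 (RRP9), 0.65 (RRP15), 0.61 (NOP4), 0.29 (RRP12) and 0.12 (NOC4), with 8, 13, 16, 22, 71 and 123 of 340 genes higher. When each array's shift of chromosome XVI was taken off its genes, the calls of NOP53 (0.40), RRP9 (0.28), NOP4 (0.02) and RRP15 (0.01) were lost in thp1Δ, and 2 genes, RRP14 and NOP16, were left. Over all genes the number higher in thp1Δ then went from 631 to 424. In sac3Δ the same correction ended the calls of RRP12 (0.34) and NOC4 (0.17) and left 15 of 17 genes, among them NOP53, RRP9, RRP15 and NOP4. Over all genes the number higher in sac3Δ then went from 381 to 277.

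The 5 genes that fell in thp1Δ were NOP7, UTP20, NOP13, NOP6 and NOP9. NOP7, a subunit of a 60S assembly complex with Erb1 and Ytm1, read 2073, 2132 and 1722 units in thp1Δ and 3405, 3461 and 3594 in BY4742 (log2 fold change −0.83 ± 0.19, adjusted p = 0.00251). Its sus1Δ arrays, at 3086, 2963 and 3207, lay between those of thp1Δ and BY4742. NOP7 was at 3315, 3433 and 2019.5 in sac3Δ and at 3191, 3122 and 2036 in BY4741 (0.06 ± 0.19, adjusted p = 0.818), where the groups overlapped and replicate 3 of each strain was far below the other two.

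UTP20, a large scaffold of the small subunit processome, read 1859, 2243 and 1924 in thp1Δ, against 3416, 3423 and 3587 in BY4742 (−0.80 ± 0.16, adjusted p = 0.000705). Every thp1Δ array lay below all arrays of BY4742 and of sus1Δ (3537, 3697 and 3520.5). NOP9, which encodes a Pumilio-like 40S factor, gave 1087, 1172 and 1128 in thp1Δ and 1647, 1769 and 1825 in BY4742 (−0.63 ± 0.11, adjusted p = 0.000209). Its sus1Δ arrays gave 1666, 1781 and 1745, all above those of thp1Δ. In sac3Δ it gave 1524, 1695 and 1368, within the wide range of BY4741 (1722, 1419.8 and 1239), with a fold change of 0.07 ± 0.11.

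NOP13, which encodes a nucleolar RNA-binding protein, was at 2099.7, 2008 and 1917 in thp1Δ, against 3217, 3230.3 and 3241 in BY4742 (−0.69 ± 0.10, adjusted p = 6.64e-05). Its sus1Δ arrays, 2594, 2750.5 and 2852, lay between those of thp1Δ and BY4742 (−0.24 ± 0.10, adjusted p = 0.0868). In sac3Δ it was at 3447, 3306 and 2634, overlapping with the 3679, 3047 and 2986 of BY4741 (−0.05 ± 0.10). NOP6, an RNA-binding factor of the 40S pathway, gave 2077, 1896 and 1806 in thp1Δ and 2996, 3210.2 and 2969 in BY4742 (−0.67 ± 0.10, adjusted p = 5.66e-05), with no overlap. All 5 calls were kept when any 1 array was left out, and the number of genes that fell was 10 without thp1Δ replicate 1 and 8 without BY4742 replicate 1. Set against BY4741, a control added after the data were seen, only NOP13 was called lower in thp1Δ.

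**Figure D3:**
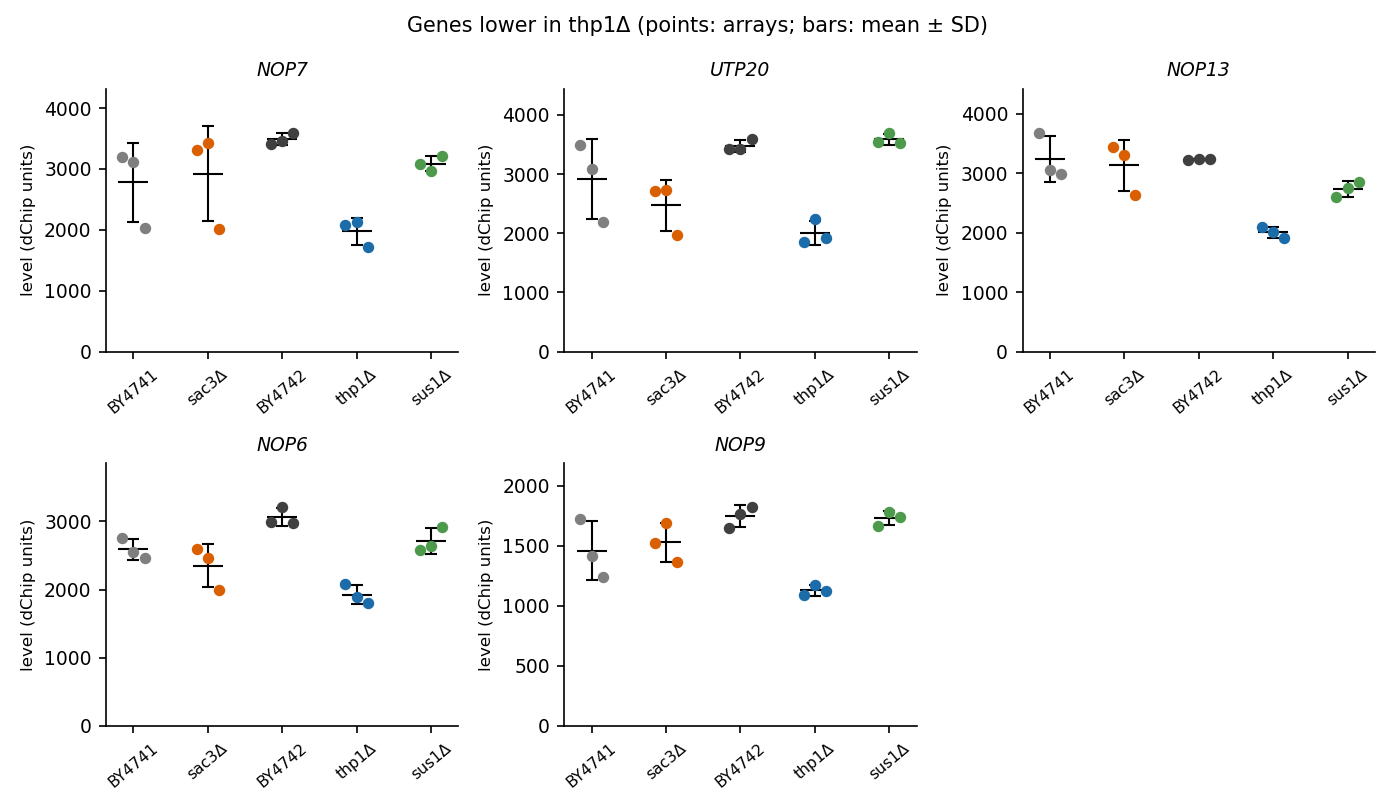
Level in dChip units (y axis, from 0) of the 5 genes that fell in thp1Δ, by strain (x axis). Points are single arrays and marks with bars are the mean ± SD of 3 arrays, and the thp1Δ arrays lie below all BY4742 arrays in each panel, while BY4741 and sac3Δ overlap.

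In sac3Δ cells, 17 of the 64 genes rose against BY4741 (26.6%, against 8.84% of all 4308 genes tested) and 0 fell (against 3.25%). No gene of the 64 had an unadjusted limma p under 0.05 with a lower level, and the methods' t-test called 0 lower too. The median log2 fold change was 0.33 for the 64 genes and 0.06 for all genes, 49 of the 64 lay above the median gene, and without chromosome XVI the median was 0.29 (58 genes). With no fold minimum, 31 genes passed the adjusted p with a higher level (27.9% of all genes did) and 0 with a lower one (16.8%). In 19 of the 59 genes with all values (32.2%) every sac3Δ array was above every BY4741 array, as in 28.2% of all genes, and in 0 was every array below, as in 15.2%.

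Besides the 6 genes shared with thp1Δ, the 11 others that rose in sac3Δ covered both subunits. Of the 60S pathway, RPF1, a member of the Brix family, read 2929, 3209 and 2162 units in sac3Δ and 1858, 1546 and 1237 in BY4741 (0.84 ± 0.14, adjusted p = 0.000487). Its groups did not overlap. In thp1Δ it read 1922, 1956 and 2018, against 1609.7, 1736 and 1717 in BY4742 (0.22 ± 0.14, adjusted p = 0.199), again with no overlap but short of the fold minimum. NOP8, another 60S factor, rose by 0.87 ± 0.14. Of the small subunit processome, the UTP-B subunits UTP6 (0.86 ± 0.16) and UTP18 (0.66 ± 0.15, n = 2 in BY4741) rose, as did RRP36 (0.82 ± 0.21), which acts early in rRNA processing. UTP14, the activator of the helicase Dhr1, rose by 0.81 ± 0.17, and UTP7, UTP11 and UTP25, 3 further 90S proteins, by 0.72 ± 0.22, 0.64 ± 0.19 and 0.67 ± 0.14. The remaining 2, RRP12 (0.80 ± 0.13) and NOC4 (0.63 ± 0.12), are on chromosome XVI. For these 11 genes the adjusted p ranged from 0.000319 (RRP12) to 0.0175 (UTP7).

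The sac3Δ calls depended on the arrays and the test more than those in thp1Δ. In the main limma fit each gene had 1 estimate of spread, shared by all strains. The SE and p-values given for sac3Δ thus did not follow the wider spread of BY4741 and sac3Δ. This also holds for the difference of the responses to the loss of Thp1 and of Sac3, given below. The number of genes that rose was 13 to 22 when 1 array was left out, and it was 31 without both BY4741 replicate 1 and sac3Δ replicate 3, an alternative added after the data were seen. These arrays were seen to be highest in BY4741 and lowest in sac3Δ for most of the 64 genes, so the 31 is no support for the rise. Over all genes the number higher was 381 in the main fit, 340 to 489 without 1 array and 535 without both. Leaving out 1 array ended the calls of UTP11 (without sac3Δ replicate 2 or BY4741 replicate 3, at 0.51 and 0.43), UTP7 (the same arrays, 0.65 and 0.35), UTP25 (without sac3Δ replicate 2, 0.57), UTP18 (without BY4741 replicate 2, 0.35) and NOC4 (without sac3Δ replicate 1 or 2 or BY4741 replicate 2, 0.57, 0.56 and 0.50). The methods' t-test on the 6 arrays called 7 genes at an unadjusted p under 0.05 (NOC4, NOP4, RPF1, RRP9, RRP12, UTP6 and UTP25) and 0 after Benjamini-Hochberg adjustment. With the array medians set equal, 13 of the 17 were called, and over all genes the split went from 381 higher and 140 lower to 273 and 245.

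By role, the complexes that start the 90S particle were not uniform. UTP-A binds the 5′ end of the precursor first, and its 6 subunits whose names fit the rule had a median log2 fold change of −0.26 in thp1Δ and 0.31 in sac3Δ, with 0 calls in either (4 genes lower in thp1Δ and 4 higher in sac3Δ at an unadjusted limma p under 0.05). The share of all genes at that unadjusted p is not given here. At the adjusted p alone, 25.3% of all genes were lower in thp1Δ and 27.9% higher in sac3Δ. Of these 6 subunits, UTP8 was the lowest in thp1Δ (−0.53 ± 0.10, adjusted p = 0.000408) and UTP9 the highest in sac3Δ (0.57 ± 0.14, adjusted p = 0.00572), both short of the fold minimum. NAN1, a UTP-A subunit with another name, on chromosome XVI, gave 0.47 ± 0.13 in thp1Δ and rose in sac3Δ (0.73 ± 0.13). The 4 subunits of UTP-B whose names fit the rule (UTP6, UTP13, UTP18 and UTP21) had medians of 0.06 in thp1Δ and 0.62 in sac3Δ, and those of the 3 of UTP-C (UTP22, RRP7 and RRP36) were 0.23 in thp1Δ and 0.57 in sac3Δ. Of the UTP-B subunits with other names, PWP2 gave −0.35 ± 0.12 in thp1Δ and 0.04 ± 0.12 in sac3Δ, and DIP2 gave −0.01 ± 0.12 and 0.41 ± 0.12. UTP22, which joins UTP-C to the particle, gave −0.23 ± 0.08 and 0.0036 ± 0.08. Among the 4 snoRNP proteins, NOP1 (fibrillarin, the methyltransferase of box C/D snoRNPs) and NOP56 gave values below 0 in thp1Δ (−0.39 ± 0.09 and −0.41 ± 0.12, short of the fold minimum), NOP58 gave 0.02 ± 0.15, and RRP9 rose. NOP10, a core protein of the H/ACA snoRNPs, gave −0.004 ± 0.07 in thp1Δ and 0.22 ± 0.07 in sac3Δ.

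The 17 other factors of the 90S and 40S particles had a median of −0.28 in thp1Δ and 0.37 in sac3Δ, with 3 lower in thp1Δ (UTP20, NOP6 and NOP9) and 6 higher in sac3Δ. Of all genes, 6.17% fell in thp1Δ and 8.84% rose in sac3Δ. RRP5, which acts on both subunits, gave −0.38 ± 0.11 and 0.14 ± 0.11. The 21 factors of the 60S subunit had a median of −0.38 in thp1Δ and 0.36 in sac3Δ. In thp1Δ this group held the widest range, from −0.83 (NOP7) to 1.28 (NOP53), with 5 genes higher and 1 lower, and in sac3Δ 7 genes were higher. Of all genes, 14.9% rose and 6.17% fell in thp1Δ, and 8.84% rose in sac3Δ. Of the 60S factors that were not called in thp1Δ, RLP24 (−0.58 ± 0.11), a placeholder for ribosomal protein L24, and NSA2 (−0.50 ± 0.08) were near the fold minimum and had no overlap with BY4742. The 7 exosome genes had medians of −0.25 in thp1Δ and 0.05 in sac3Δ, with 0 calls in either (5 lower in thp1Δ and 2 higher in sac3Δ at an unadjusted limma p under 0.05), and RRP6, the nuclear 3′ exonuclease, was the lowest of them in thp1Δ (−0.57 ± 0.08, adjusted p = 6.46e-05). At the adjusted p alone, 25.3% of all genes were lower in thp1Δ and 27.9% higher in sac3Δ.

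**Figure D4:**
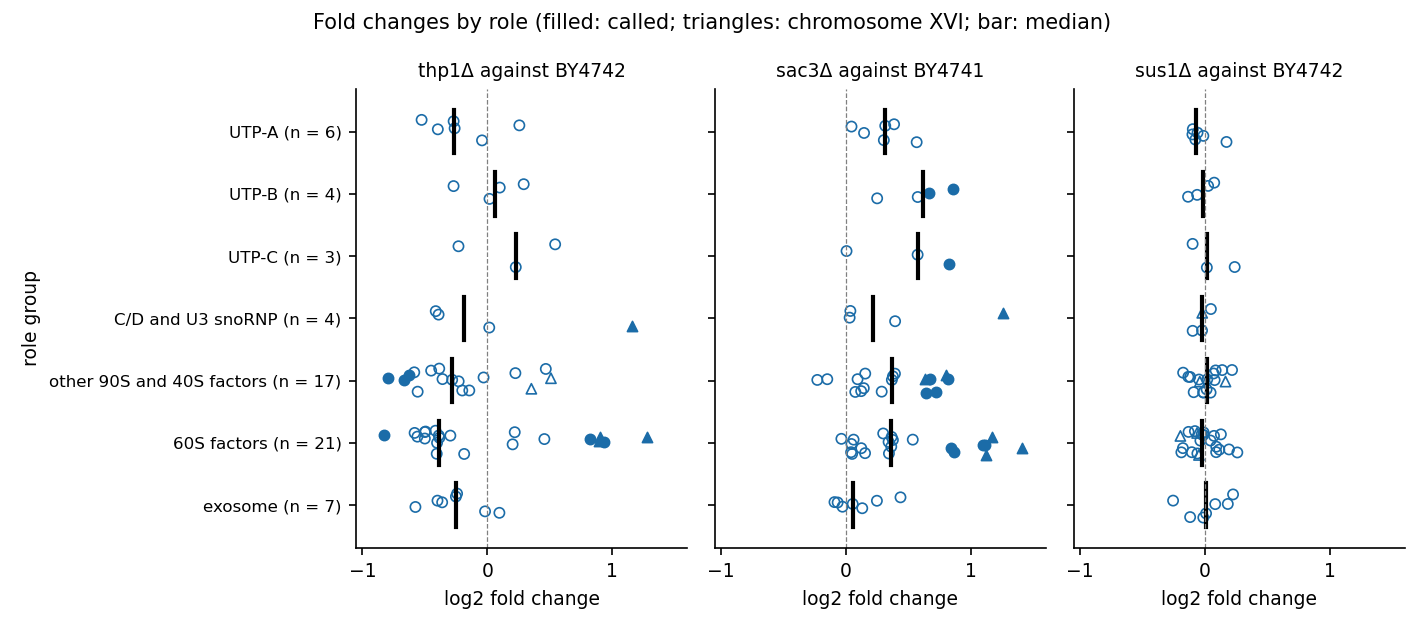
Log2 fold change (x axis) of the genes of 7 role groups (y axis) in thp1Δ and sus1Δ against BY4742 and in sac3Δ against BY4741. Filled symbols passed the calling criteria, triangles are on chromosome XVI and bars are group medians, which in sac3Δ ran from 0.05 (exosome) to 0.62 (UTP-B).

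In sus1Δ cells, 0 of the 64 genes were called in either direction against BY4742 (3.46% of all 4304 genes tested rose and 1.39% fell), with limma and with the methods' t-test. At an unadjusted limma p under 0.05 there were 2 genes higher and 2 lower, and the smallest adjusted p was 0.0616 (RRP42, an exosome core subunit, at −0.26 ± 0.09). For counts at an unadjusted p, the share over all genes is not given here. The log2 fold changes ran from −0.26 (RRP42) to 0.26 (RPF1), with a median of −0.01, against 0.03 for all genes. In 13 genes (20.3%) all sus1Δ arrays were above those of BY4742, as in 39% of all genes, and in 13 (20.3%) all were below, as in 26.8%. Between the wild types, 0 of the 64 genes were called (0.909% of all 4291 genes tested were higher in BY4742 and 0.186% lower), 7 genes were higher in BY4742 at an unadjusted p under 0.05, and the methods' t-test called 0 too. Their median was nonetheless 0.15 higher in BY4742, with 52 of the 64 above 0, and this value was 0.26 without BY4741 replicate 1 and 0.04 without BY4741 replicate 3.

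Because thp1Δ and sus1Δ share the BY4742 arrays, they were also compared directly. Of the 64 genes, 6 were higher in thp1Δ than in sus1Δ (9.38%, against 11.7% of all 4284 genes tested) and 8 lower (12.5%, against 5.77%). The 6 were those that rose against BY4742, from NOP53 (1.48 ± 0.20, adjusted p = 4.86e-05) to RRP14 (0.82 ± 0.20, adjusted p = 0.0036). The 8 were UTP20 (−0.84 ± 0.16, adjusted p = 6e-04), NOP7 (−0.65 ± 0.19, adjusted p = 0.0126) and NOP9 (−0.62 ± 0.11, adjusted p = 0.000315), which had fallen against BY4742, and RRP6, ENP1, UTP23, NOC3 and NSA2. Of the latter, each had thp1Δ arrays below all arrays of sus1Δ and of BY4742.

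RRP6 read 1702, 1496 and 1465 units in thp1Δ, 2478, 2602 and 2797 in sus1Δ and 2214, 2367 and 2353 in BY4742 (−0.76 ± 0.08, adjusted p = 8.04e-06 for thp1Δ against sus1Δ). All 3 of its sus1Δ arrays were above BY4742. ENP1, a factor of the 40S subunit up to its export, read 1468, 1371 and 1249 in thp1Δ, 2025, 2199.7 and 2271 in sus1Δ and 1961, 2069 and 2087 in BY4742 (−0.67 ± 0.12, adjusted p = 0.000332). UTP23, a small subunit processome component, read 2540.0, 2382 and 2196 in thp1Δ, 3535, 3998 and 3751 in sus1Δ and 3458, 3096 and 3155 in BY4742 (−0.67 ± 0.14, adjusted p = 0.00152). In sus1Δ, ENP1 overlapped with BY4742 and UTP23 lay above it. NOC3, a 60S factor also known in replication, read 1544, 1442 and 1295 in thp1Δ, 2204, 2251 and 2243 in sus1Δ and 1980.5, 2145 and 2170.5 in BY4742 (−0.65 ± 0.10, adjusted p = 0.000197). NSA2, also of the 60S pathway, read 3100.3, 2858 and 2665 in thp1Δ and 4317, 4471 and 4504 in sus1Δ (−0.63 ± 0.08, adjusted p = 2.63e-05). Without thp1Δ replicate 3, the array with the highest SRB4 ratio, NOP7 (−0.55), NOC3 (−0.58) and NSA2 (−0.57) were no longer called and 5 of the 8 were left. With the shift of chromosome XVI taken off, RRP14 and NOP16 were left of the 6, and NOP53, at 0.58, was just short of the fold minimum.

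The responses to the loss of Thp1 and of Sac3 rest on separate wild-type arrays, so their difference was tested as 1 contrast. All 64 genes had a lower value in thp1Δ against BY4742 than in sac3Δ against BY4741, by −0.10 to −0.89 on the log2 scale (median −0.47, against 0.03 for all genes). The difference passed the adjusted p and the fold minimum in 16 genes (25%, against 3.18% of all 4183 genes tested) with the lower value in thp1Δ, and in 0 with the lower value in sac3Δ (3.23%). In 36 genes the fold change was below 0 in thp1Δ and above 0 in sac3Δ, in 21 it was above 0 in both, in 7 below 0 in both, and in 0 the reverse. For these counts of signs the share over all genes is not given here. All 64 differences also lay below that of the median gene. Of the 16 genes, 9 were 60S factors (NOP7, RRP8, RPF2, NSA1, RLP24, RRP17, RRP1, RPF1 and NOC3), 5 were 90S or 40S factors (ENP1, UTP23, RRP3, NOP9 and UTP30), and the others were UTP8 and NOP13. None of the 16 was on chromosome XVI, though with that chromosome's shift taken off RRP12 and NOC4 were called too. RPF1, on chromosome VIII, kept its difference of −0.62 there, but its adjusted p went from 0.0469 to 0.0542.

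UTP8, a UTP-A subunit also known in tRNA export, read 1437, 1292 and 1338 units in thp1Δ and 1875, 2024 and 1952 in BY4742. In sac3Δ it read 2038, 1961 and 1916, against 1927, 1478 and 1433 in BY4741 (difference of responses −0.83 ± 0.14, adjusted p = 0.00285). Its thp1Δ arrays were all below BY4742, and the highest BY4741 array overlapped with sac3Δ. RPF2, which brings the small ribonucleoprotein of the large subunit into its precursor, read 3362, 3188 and 3023 in thp1Δ and 4056, 4268 and 4339 in BY4742. In sac3Δ it read 5277, 5379 and 4064, against 4508, 3752 and 3215 in BY4741 (−0.77 ± 0.17, adjusted p = 0.00978). RRP8, a methyltransferase of the large rRNA, had thp1Δ arrays at 1667, 1743 and 1677, again below the 2392, 2457 and 2342 of BY4742. Its sac3Δ arrays were at 2643, 2730.2 and 2099.9 and those of BY4741 at 2477, 2044 and 1402 (−0.86 ± 0.22, adjusted p = 0.0178). In both genes BY4741 replicate 1 was above sac3Δ replicate 3, so that the sac3Δ groups overlapped.

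ENP1, lower in thp1Δ than in BY4742 in every array as given above, read 2119.7, 2188 and 1803 in sac3Δ and 2216, 1554 and 1765 in BY4741 (difference −0.74 ± 0.16, adjusted p = 0.00978). UTP23 read 3717, 3979 and 2766 in sac3Δ and 3505, 2502 and 2579 in BY4741 (−0.73 ± 0.20, adjusted p = 0.0226). NOC3 read 2075, 2111 and 1754 in sac3Δ and 2224, 1898 and 1647 in BY4741 (−0.61 ± 0.15, adjusted p = 0.0144). In all 3 genes the sac3Δ and BY4741 groups overlapped. NOP7 had the lowest difference of the 64 genes (−0.89 ± 0.28, adjusted p = 0.0378), with the spread in BY4741 and sac3Δ given above, and kept the call in 3 of the 12 fits with 1 array left out. Of the rest, NSA1 (−0.73 ± 0.14), RLP24 (−0.70 ± 0.16), RRP17, a nuclease (−0.68 ± 0.18), RRP1 (−0.67 ± 0.21) and RPF1 (−0.62 ± 0.20) act on the 60S subunit. The others were RRP3, a helicase of the 40S pathway (−0.72 ± 0.16), NOP9 (−0.70 ± 0.15), UTP30 (−0.65 ± 0.20) and NOP13 (−0.63 ± 0.14).

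The number of genes in this difference varied with single arrays. It was 10 without thp1Δ replicate 3, 9 without sac3Δ replicate 1 or 2, 35 without sac3Δ replicate 3 and 31 without BY4741 replicate 1. Over all genes the number with the lower value in thp1Δ moved too, from 133 in the main fit. It was 127 without thp1Δ replicate 3, 106 and 112 without sac3Δ replicate 1 or 2, 219 without sac3Δ replicate 3 and 244 without BY4741 replicate 1. UTP8, RRP8, RPF2, ENP1, NSA1, RLP24 and NOP9 kept the call when any 1 of the 12 arrays was left out, while RRP3 and RRP17 kept it in 11 of the 12 fits, NOP13 in 10, UTP23 in 8, NOC3 in 7, RRP1 in 4, NOP7 and UTP30 in 3 and RPF1 in 2. Compared with each other directly, a contrast added after the data were seen, thp1Δ and sac3Δ differed in 3 genes (RPF2, NOP13 and UTP15, all lower in thp1Δ), at a median of −0.38. Over all genes, 65 were lower and 126 higher in thp1Δ in that contrast, at a median of 0.02. That contrast takes in the wild-type difference of 0.15 given above. The SRB4 ratios of thp1Δ and sac3Δ overlapped (8.84 to 19.3 and 8.49 to 12.0), but those of BY4742 and BY4741 did not (4.28 to 4.63 and 6.09 to 7.01). The part of this ratio in the difference of responses was not tested.

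**Figure D5:**
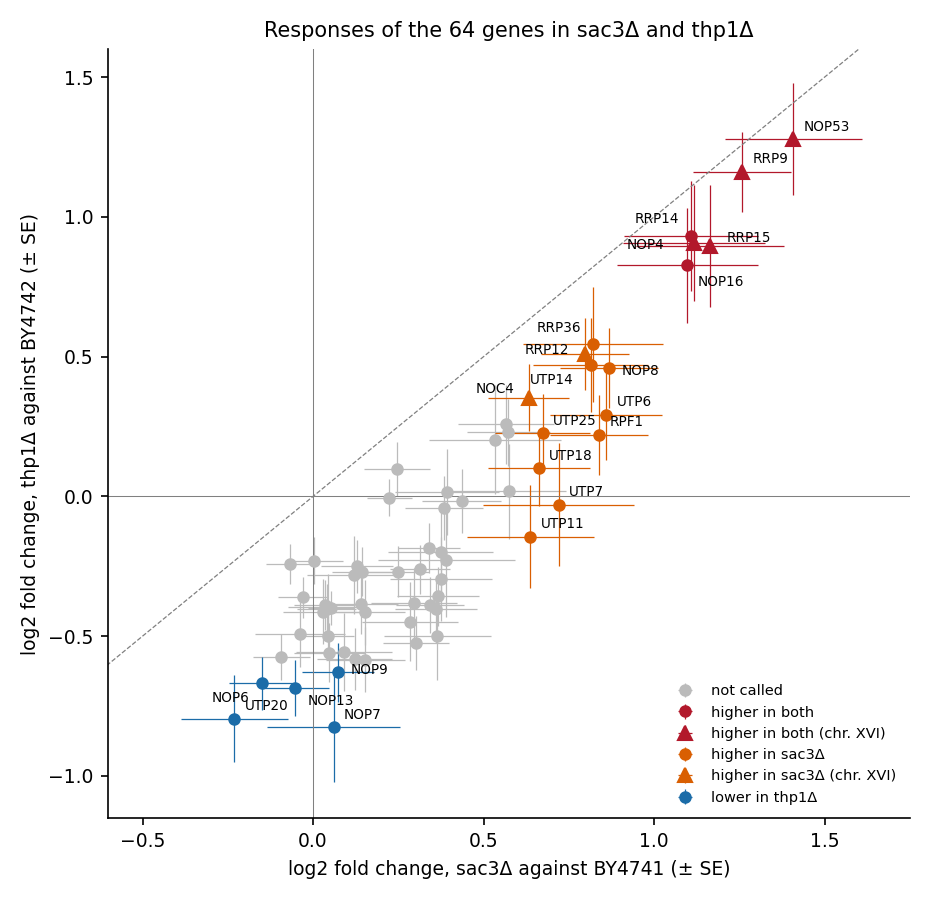
Log2 fold change of each of the 64 genes in sac3Δ against BY4741 (x axis) and in thp1Δ against BY4742 (y axis), with bars for the SE. Colours give the calls, triangles mark chromosome XVI, and all 64 points lie below the dashed line of equal responses.

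A list of 122 further genes of the pathway with other names (factors of both subunits, exosome and H/ACA subunits, RNA polymerase I and regulators) gave values of the same order. In thp1Δ, 9 of the 115 tested rose and 16 fell (14.9% and 6.17% of all genes did), with a median of −0.19. Those with the largest increases were IFH1 (1.05 ± 0.20), a coactivator of ribosomal protein genes, and the 90S factors BUD22 (1.00 ± 0.21) and MRD1 (0.85 ± 0.14, chromosome XVI). Those with the largest decreases were IMP3 (−0.82 ± 0.11), a partner of the U3 snoRNA, and the helicase genes DBP2 (−0.80 ± 0.15) and HAS1 (−0.79 ± 0.11). Of 10 RNA polymerase I genes tested, RPA49 (−0.69 ± 0.09), RPA43 (−0.69 ± 0.10) and RPA190 (−0.68 ± 0.10) fell, while RRN3, its initiation factor, rose (0.64 ± 0.13). In sac3Δ, 28 of the 116 tested rose (chromosome XVI held 7) and 0 fell (8.84% and 3.25% of all genes did, and 2 of the list were lower at an unadjusted limma p under 0.05), with a median of 0.27. The largest increases were those of RRN11 (1.30 ± 0.22), of the core factor of RNA polymerase I, and of BFR2 (1.17 ± 0.19) and SPB1 (1.15 ± 0.18), a 90S and a 60S factor. In sus1Δ 0 of 115 genes were called (2 higher and 5 lower at an unadjusted limma p under 0.05), at a median of 0.01. Between thp1Δ and sus1Δ, 9 of 116 were higher in thp1Δ, led by RRN11 (1.09 ± 0.22), BUD22 (0.94 ± 0.21) and ESF1 (0.80 ± 0.15), and 13 lower, led by DBP2 (−0.90 ± 0.15), KRE33 (−0.78 ± 0.10) and IMP3 (−0.75 ± 0.11), against 11.7% and 5.77% of all genes. In the difference of responses 30 of 115 were lower in thp1Δ (3.18% of all genes were), with IPI3 (−0.94 ± 0.18), FAF1 (−0.92 ± 0.19) and FAL1 (−0.90 ± 0.21) the lowest, and 0 were lower in sac3Δ, also at an unadjusted limma p under 0.05.

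The 64 genes were also described by coding length and position. Their coding lengths ran from 177 to 7482 bases with a median of 1422, against 1272 for all genes tested in thp1Δ. The median was 1455 bases for the 17 genes that rose in sac3Δ and 1392 for the 47 others. In thp1Δ it was 1818 for the 5 that fell, 1336.5 for the 6 that rose and 1452 for the 53 others. Across the 64 genes, Spearman's rho between length and log2 fold change was 0.00446 in thp1Δ and 0.025 in sac3Δ (0.108 and 0.0276 across all genes tested, which are not independent replicates). Of the members close together in the genome, RRP15 and NOC4 are next to each other and both were above wild type in thp1Δ (0.90 and 0.35). NOP8 and RRP40, an exosome subunit, are separated by 1 gene and gave 0.46 ± 0.14 and −0.24 ± 0.07 in thp1Δ and 0.87 ± 0.14 and −0.07 ± 0.07 in sac3Δ.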

How the data were processed

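The authors hybridised RNA of each sample to 1 Affymetrix yeast array and obtained expression values with dChip, whose version the sources used here do not give. Its invariant-set normalisation and its model of perfect-match probes led to the deposited values, 1 per probe set, each an intensity in arbitrary linear units. Cells left empty because the model called them outliers were treated as missing. Of 5900 probe sets, 5498 were assigned to 1 gene, and where a gene had several (47 genes) the one with the highest mean was kept, leaving 5449 genes. Names and gene order came from RefSeq assembly R64.

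As in the study's methods, genes below 600 units in 50% or more of a comparison's 6 arrays were dropped. Using limma 3.58.1 (R 4.3.3), lmFit and eBayes were run on log2 values of all 15 arrays in 5 groups, and p-values were adjusted by Benjamini-Hochberg over all genes tested. Calls needed an adjusted p under 0.05, a fold of 1.5 and a difference of means over 100 units (not asked of the difference of responses). The script was tested on simulated data. Alternatives were array scaling, the filter, the arrays fitted, array weights, the replicate number as a block, the methods' t-test (variances not pooled), the probe set rule, empty cells, a correction for chromosome XVI, and each array left out. Genes named are those called in a mutant comparison or in the difference of responses, with values of every array for those called in more than 1 contrast or among the 6 largest of a comparison, and the extremes of role groups. Of the other pathway genes, the 3 largest increases and decreases are named, and RNA polymerase I genes, NAN1, PWP2 and DIP2 were added after their values were seen. Genes and lists were chosen with earlier results of these data known. Counts at an unadjusted limma p are given without the share of all genes at that p. Same-numbered arrays of a mutant and its wild type did not share their deviations in thp1Δ (r −0.13 to −0.07) or in every pair of sac3Δ (0.05 to 0.28), but did in sus1Δ (0.11 to 0.19). Promoter sequences were not analysed here.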

Additional observations from a re-analysis of the deposited data

Results flagged for a closer look

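The test of the difference between the 2 responses, thp1Δ against BY4742 minus sac3Δ against BY4741, passed for 16 genes, all with the lower value in thp1Δ (limma, log2 difference, n = 3 arrays per strain, but 2 of BY4741 for RRP3). NOP7, RRP1, UTP30 and RPF1 lost the call in most fits with 1 array left out. Those with a difference of −0.72 or lower were NOP7 (−0.89, adjusted p = 0.0378), RRP8 (−0.86, adjusted p = 0.0178), UTP8 (−0.83, adjusted p = 0.00285), RPF2 (−0.77, adjusted p = 0.00978), ENP1 (−0.74, adjusted p = 0.00978), UTP23 (−0.73, adjusted p = 0.0226), NSA1 (−0.73, adjusted p = 0.00529) and RRP3 (−0.72, adjusted p = 0.0107). Those closer to 0 were RLP24 (−0.70, adjusted p = 0.0101), NOP9 (−0.70, adjusted p = 0.00807), RRP17 (−0.68, adjusted p = 0.0194), RRP1 (−0.67, adjusted p = 0.0397), UTP30 (−0.65, adjusted p = 0.0364), NOP13 (−0.63, adjusted p = 0.00985), RPF1 (−0.62, adjusted p = 0.0469) and NOC3 (−0.61, adjusted p = 0.0144). In 14 of the 16 the fold change was below 0 in thp1Δ and above 0 in sac3Δ, the exceptions being RPF1, above 0 in both, and NOP13, below 0 in both. Of the 16, 12 were called in neither mutant alone.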

How the results depend on the processing

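The dChip normalisation rests on an invariant set of probes, and no probe-level data were used here. In thp1Δ the number of the 64 genes that rose was 2 with chromosome XVI left out or centred, and 6 to 7 with 1 array left out. Over all genes, 631 rose in the main fit and 424 with that chromosome centred. Of the 64 genes, the number that fell was 14 with equal array medians, 13 with quantile normalisation, 1 with BY4741 as control, and 5 to 10 with 1 array left out. The thp1Δ median was −0.38, −0.34 and −0.11 under these 3 settings and −0.28 to −0.23 with 1 array left out. In sac3Δ the number that rose was 11 without the genes of chromosome XVI, 7 and 0 with the methods' t-test (unadjusted and adjusted), 31 without both BY4741 replicate 1 and sac3Δ replicate 3 (median then 0.55), and 13 to 22 with 1 array left out (median 0.23 to 0.44). Over all genes, 381 rose in the main fit, and 277 and 15 with that t-test. The joint omission gave 535 over all genes, and leaving out 1 array gave 340 to 489. With BY4742 as control 13 of the 64 genes rose in sac3Δ, at a median of 0.15, and UTP11, RRP12, NOC4, UTP7 and UTP18 were no longer called. With equal array medians its median was 0.21. The sus1Δ median was −0.0898 with equal array medians, 0.10 with BY4741 as control, where its sign turned, and −0.04 to 0.01 with 1 array left out. Between thp1Δ and sus1Δ, 2 genes were higher with chromosome XVI left out or centred, and 5 to 9 were lower with 1 array left out. In the difference of responses, the count was 25 with array weights, 3 for thp1Δ directly against sac3Δ, and 9 to 35 with 1 array left out. Over all genes the number lower in thp1Δ was 166, 65 and 106 to 244 in these settings, against 133 in the main fit. With only the arrays compared in the fit, 13 of the 64 genes rose in sac3Δ, while the thp1Δ counts stayed at 6 and 5. The difference of responses then held 12 genes, without NOP7, UTP30, RRP1 and RPF1. The causes were not tested. With the replicate number as a block the counts were 6 and 5 in thp1Δ, 17 in sac3Δ, 6 and 8 between thp1Δ and sus1Δ, and 17 in the difference of responses, and the block moved no count by over 1.5 times. In sus1Δ every pair's correlation was over 0.1, and all 3 arrays correlated best with their own number. For single named genes, 383 leave-one-out checks kept the call and 61 lost it, and of the other checks 588 kept it and 77 lost it. Controls from the other wild type, the direct contrast and the joint omission were added after the data were seen. A planned search of promoters for motifs was not run.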
